A study of Equus caballus with 14 samples.

Results

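Fat is stored as triglyceride, which is assembled from glycerol and fatty acids that a cell either takes up from the blood or makes itself. Lipoprotein lipase frees fatty acids at the vessel wall, CD36 carries them across the membrane, fatty acid synthase and stearoyl-CoA desaturase make them and desaturate them, and PPAR gamma switches these genes on in adipocytes, which also secrete adiponectin and leptin. Skeletal muscle fibers use most of the same proteins to burn and store fatty acids, and a muscle biopsy can hold adipocytes between its fibers.

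The transcripts described here are those of 10 genes of adipocytes and of lipid storage. They are SCD (stearoyl-CoA desaturase), Fasn (fatty acid synthase), Gpam (mitochondrial glycerol-3-phosphate acyltransferase, the first step of triglyceride synthesis), CD36, Lpl (lipoprotein lipase), Fabp4 (the adipocyte fatty acid binding protein), Pparg, Adipoq (adiponectin), C1QTNF2 (a secreted relative of adiponectin) and LEPR (the leptin receptor). The members are every probe that bears one of these gene names, and 12082 genes are named on the microarray. They had 14 probes in all, 5 of them among the 384 equine probes (SCD, CD36, LEPR, Gpam and C1QTNF2) and 9 among the 24109 mouse probes (Fasn, Lpl, Adipoq, Pparg, Fabp4, Gpam, Cd36 and 2 for Lepr). No mouse probe carried the symbol of C1QTNF2 or SCD, although 10679 mouse probes have no symbol here. The 2 mouse Lepr probes are told apart by the number that ends their names, 3289 and 3426.

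The study compared the gluteus medius muscle of adult Norman Cob horses with polysaccharide storage myopathy (PSSM), a disease in which muscle fibers fill with abnormal polysaccharide, with that of sound horses. The labels name 7 PSSM horses (5, 12, 32, 38, 42, 44 and 54). The study describes its PSSM horses as heterozygous (GA) or homozygous (AA) carriers of a mutation of the glycogen synthase gene GYS1 and its control horses as wild type (GG), but the study's list of horses names no horse 5, whose genotype is therefore not known here. Each PSSM horse was hybridized on 2 microarrays with the dyes Cy3 and Cy5 swapped, against a pool of RNA from 6 control muscles. The pool is 1 control sample, so that all errors are spreads between PSSM horses, and age, sex, genotype and histology of single horses were not used here. Both RNAs were amplified by in vitro transcription before labeling. A value is the log2 ratio of PSSM muscle over the control pool, so that 0 is the level of the pool and each step of 1 is a doubling. Ratios carry no level, so that genes cannot be ranked by abundance.

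On a microarray 321 to 376 equine probes and 7351 to 16696 mouse probes had a value, and the rule behind the empty cells is not given in the sources used here. The median equine probe had a value on 14 microarrays and the median mouse probe on 8. Correlations over equine probes were 0.25 to 0.83 between horses in the same dye orientation, and -0.22 to 0.63 (median 0.48) between both microarrays of a horse. Over mouse probes they were lower, 0.07 to 0.67 between horses in the same orientation and -0.12 to 0.38 (median 0.18) between both microarrays of a horse. The muscle label could not be checked from these values. All 7 equine and 21 of 31 mouse probes of muscle fiber markers had values from at least 5 horses. So did 361 of all 384 equine and 13067 of all 24109 mouse probes, and 12 of 17 mouse probes of hepatocyte markers. Detection therefore does not tell muscle from another tissue here.

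Of the 10 lipid genes 9 could be tested, and none of them passed the test against the control pool in the horses as a group (Fabp4 had too few values). With limma (a test of the horse means against 0, with Benjamini-Hochberg adjustment over the probes of one species), 0 of the 5 equine member probes and 0 of the 5 tested mouse member probes passed an adjusted p of 0.05. Of all 361 tested equine probes 24.4% passed (4.43% higher and 19.9% lower), and of all 13067 tested mouse probes 1.81% passed (0.452% higher and 1.36% lower). Without adjustment, limma gave a p under 0.05 for 0 equine member probes and for 1 mouse member probe, that of Lpl, against 38.0% of all equine and 19.1% of all mouse probes. The test of horse means that the study's methods state, run with the same adjustment, called 0 of either. The median log2 ratio was 0.0042 over the 5 equine members and 0.044 over the 5 mouse members, against -0.08 over all tested equine probes and -0.0085 over all tested mouse probes. In such bulk muscle RNA, fewer cells of a type and less RNA per cell cannot be told apart.

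What set the equine members apart from each other was how far single horses lay from the pool. SCD varied most and Gpam and C1QTNF2 least. SCD and LEPR each had horses clearly on both sides of the control level. CD36 was clearly above it in horse 5, but below it on both microarrays only in horse 42. The plot of the equine probes by horse shows these spreads.

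**Figure D1:**
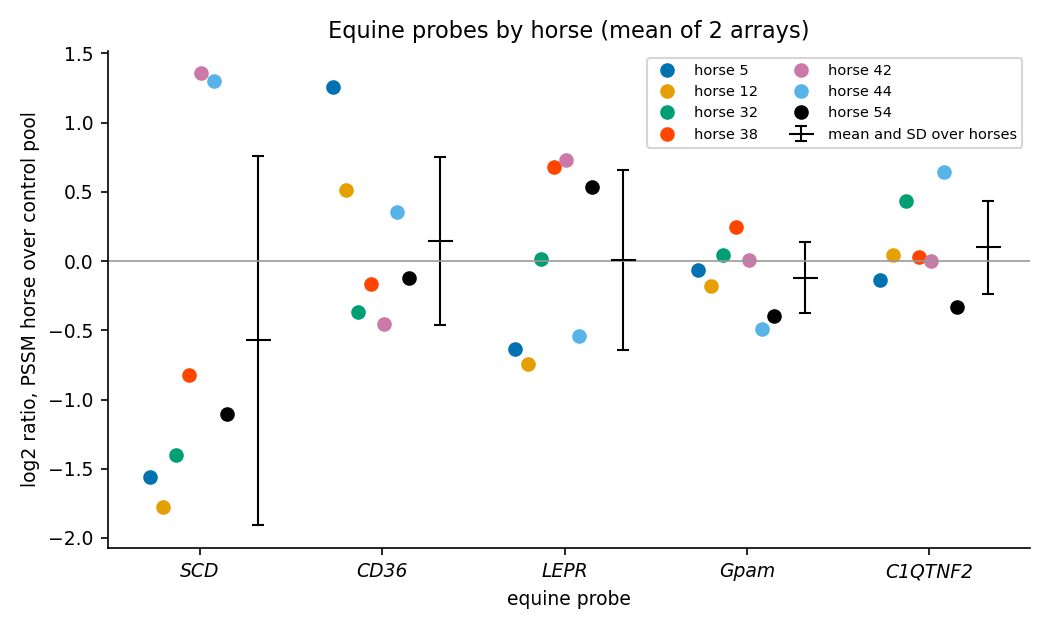
Log2 ratio of PSSM muscle over the control pool (y axis) for the 5 equine probes (x axis). Each point is 1 horse, the mean of its 2 microarrays, and the bar is the mean with the SD over 7 horses. SCD runs from -1.78 to 1.36 with no horse near 0, while Gpam stays between -0.49 and 0.24.

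SCD introduces the double bond that turns saturated into monounsaturated fatty acids, and its transcript is known for strong regulation by insulin and diet. The log2 ratios of SCD were -1.56 in horse 5, -1.78 in horse 12, -1.40 in horse 32, -0.83 in horse 38, 1.36 in horse 42, 1.30 in horse 44 and -1.11 in horse 54. Horses 42 and 44 lay above the pool and the other 5 below it, and no horse mean lay between -0.83 and 1.30. As ratios, SCD was at 0.292 times the pool in horse 12 and at 2.56 times the pool in horse 42, an 8.77-fold difference between these horses. The mean was -0.57 ± 1.33 (SD, n = 7 horses; 95% interval -1.81 to 0.66), with an adjusted p of 0.343 by limma and a p of 0.281 in an exact two-sided sign-flip test, whose smallest possible p with 7 horses is 0.0156. The SD of SCD ranked 5 among the 361 tested equine probes, whose median SD was 0.33.

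Both microarrays of a horse gave SCD the same sign in 7 of 7 horses. With PSSM muscle in Cy3 the log2 ratios of SCD were -0.99, -0.41, -0.02, -0.31, 1.65, 1.81 and -1.15 in the order of horses above, and with PSSM muscle in Cy5 they were -2.13, -3.14, -2.78, -1.34, 1.06, 0.79 and -1.06. The Cy5 value was the lower in 6 of 7 horses, and the dyes differed most in horses 12 and 32. The mean difference, Cy5 minus Cy3, was -1.31 (limma, adjusted p = 0.0057). The mean of SCD was therefore 0.08 ± 1.19 with PSSM muscle in Cy3 and -1.23 ± 1.64 with PSSM muscle in Cy5 (SD, n = 7), on opposite sides of the pool, and neither orientation passed by itself.

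CD36 is a membrane protein that takes up long-chain fatty acids in muscle fibers, adipocytes, capillary endothelium and macrophages. Its equine probe had log2 ratios of 1.26 in horse 5, 0.51 in horse 12, -0.37 in horse 32, -0.16 in horse 38, -0.45 in horse 42, 0.35 in horse 44 and -0.13 in horse 54. Horse 5 was the highest, at 2.39 times the pool, and 4 of 7 horses lay below the pool. The mean of CD36 was 0.15 ± 0.61 (SD, n = 7; 95% interval -0.42 to 0.71; limma, adjusted p = 0.622; exact sign-flip p = 0.625). The value with PSSM muscle in Cy5 was the higher one in 7 of 7 horses, by 0.66 on average (limma, adjusted p = 0.0015), so that the mean was -0.18 ± 0.68 in the Cy3 orientation and 0.47 ± 0.55 in the Cy5 orientation. Both microarrays of a horse gave CD36 the same sign in 3 of 7 horses, above the pool in horses 5 and 12 and below it in horse 42. In horse 5 they read CD36 at 1.12 and 1.40. The mean without horse 5 was -0.04. The mouse Cd36 probe had a value on 2 microarrays, 0.14 in horse 5 (control at its lowest signal) and -0.10 in horse 54, and was not tested.

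LEPR is the receptor of leptin, the hormone that adipocytes secrete. The log2 ratios of the equine LEPR probe were -0.64 in horse 5, -0.75 in horse 12, 0.01 in horse 32, 0.68 in horse 38, 0.73 in horse 42, -0.54 in horse 44 and 0.54 in horse 54. Horses 5, 12 and 44 were low, horses 38, 42 and 54 were high by about as much, and horse 32 was at the pool. The mean of LEPR was 0.0042 ± 0.65 (SD, n = 7; 95% interval -0.60 to 0.61; limma, adjusted p = 0.990; exact sign-flip p = 0.969). Both microarrays of a horse gave LEPR the same sign in 6 of 7 horses, the exception being horse 32, and the dyes differed by -0.10 (limma, adjusted p = 0.622).

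The mouse probe of the same receptor, Lepr 3289, read otherwise. Its horse means were 0.35, 0.29, -0.04, -0.01, 0.06, 0.63 and -0.09 in horses 5, 12, 32, 38, 42, 44 and 54. The sign was opposite to that of the equine LEPR probe in 6 of 7 horses, horse 42 being the exception. In horses 32, 38 and 54 the mean of Lepr 3289 was so near the pool that its sign carries little weight. Lepr 3289 was above the pool on 7 of 7 microarrays with PSSM muscle in Cy3 (0.60 to 1.80) and below it on 7 of 7 with PSSM muscle in Cy5 (-1.10 to -0.15). The dye difference, -1.78, was the largest in size among the members (limma, adjusted p = 0.0002), and the mean over both dyes was 0.17 ± 0.26 (SD, n = 7; limma, adjusted p = 0.384; exact sign-flip p = 0.188). The other mouse probe, Lepr 3426, had a value on 4 microarrays of 3 horses. Its values were 0.68 (Cy3) and -0.72 (Cy5) in horse 5, 0.93 (Cy3) in horse 12 and 0.85 (Cy3) in horse 54, again positive with PSSM muscle in Cy3 and negative with it in Cy5. On the 3 Cy3 microarrays the control channel of Lepr 3426 was at its lowest signal, and this probe was not tested.

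**Figure D2:**
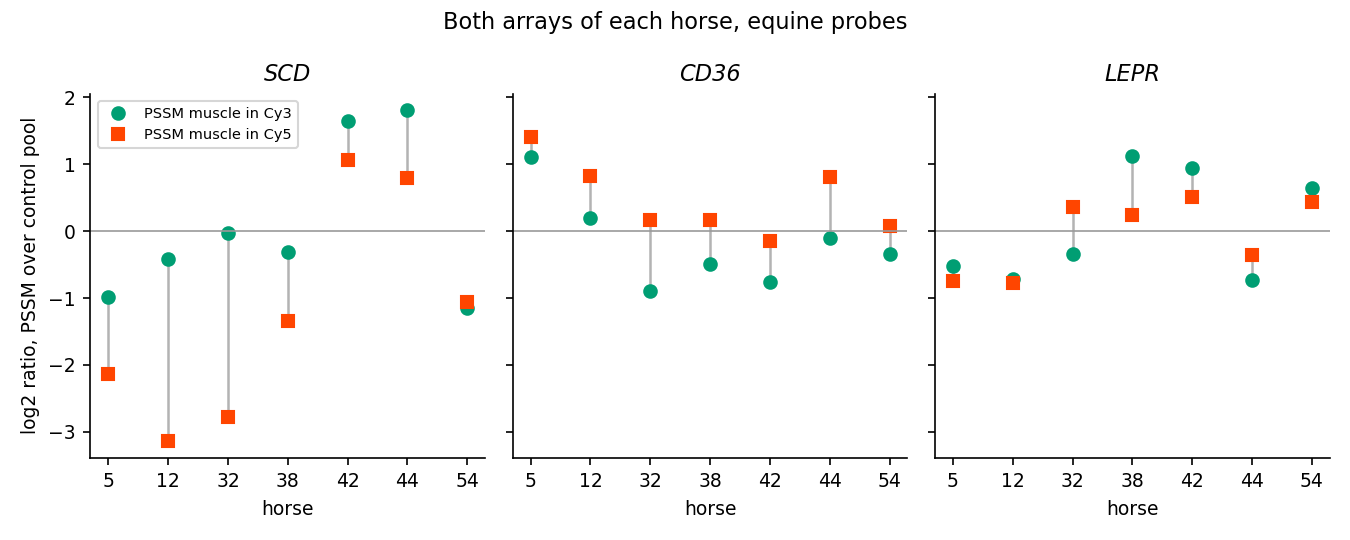
Log2 ratio of PSSM muscle over the control pool (y axis) on both microarrays of each horse (x axis) for the equine probes of SCD, CD36 and LEPR. Circles are microarrays with PSSM muscle in Cy3, squares those with PSSM muscle in Cy5, and the line joins the microarrays of a horse. The circle lies above the square in 6 of 7 horses for SCD and below it in 7 of 7 for CD36, while SCD keeps its sign within all 7 horses.

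Gpam catalyzes the committed step of glycerolipid synthesis. The horse means of the equine Gpam probe ran from -0.49 (horse 44) to 0.24 (horse 38) with a median of -0.06, and 4 of 7 horses were below the pool. The mean of Gpam was -0.12 ± 0.26 (SD, n = 7; 95% interval -0.36 to 0.12; limma, adjusted p = 0.449; exact sign-flip p = 0.312). In the ratio itself, this interval covers 0.781 to 1.09 times the pool. The mouse Gpam probe had 1 value, -1.33 in horse 5 with PSSM muscle in Cy3, where the equine probe read -0.05.

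C1QTNF2, also called CTRP2, belongs to the C1q and TNF related proteins, as adiponectin does. Horses 44 and 32 had the highest values of C1QTNF2, 0.64 and 0.44, and horse 54 the lowest, -0.33, around a median of 0.03. The mean of C1QTNF2 was 0.10 ± 0.33 (SD, n = 7; 95% interval -0.21 to 0.41; limma, adjusted p = 0.594; exact sign-flip p = 0.453), and 0.0074 without horse 44. In horse 54 the microarrays gave 0.07 and -0.73, with the second one (PSSM muscle in Cy5) setting the low mean. Neither Gpam nor C1QTNF2 passed the dye test (differences of -0.09 and -0.17; limma, adjusted p = 0.575 and 0.406).

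Since the spread of SCD, CD36 and LEPR stood out, the difference between horses was tested after these values had been seen, with an F test in limma of horse beside dye over the 14 microarrays. SCD (adjusted p = 0.0032), CD36 (adjusted p = 0.0014) and LEPR (adjusted p = 0.0077) passed, and Gpam (adjusted p = 0.250) and C1QTNF2 (adjusted p = 0.220) did not. That is 3 of 5 equine members, where 30.1% of the 299 equine probes with a value on every microarray passed. None of the 3 mouse members with a value on every microarray passed (Fasn, adjusted p = 0.820; Lpl, 0.263; Lepr 3289, 0.534), against 12.7% of 5890 mouse probes. Both microarrays of a horse used the same RNA, so that this test sets the difference between biopsies against hybridization error, not against repeated biopsies.

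Pairs of members were compared over the horses. Of the 10 pairs of equine members, CD36 and LEPR were the most closely related (Pearson's r = -0.80, exact permutation p = 0.0306; Spearman's rho = -0.86, exact permutation p = 0.0238; n = 7). After adjustment over the 10 pairs these p-values were 0.306 and 0.238 (exact permutation, Benjamini-Hochberg), and 0 pairs passed. Without the 2 horses farthest from the median of LEPR, r between CD36 and LEPR was -0.76, and within the dye orientations it was -0.53 (Cy3) and -0.94 (Cy5). For SCD and LEPR r was 0.28 and rho 0.79 (exact permutation p = 0.480 and 0.0480; adjusted 0.752 and 0.240), and r became -0.30 without the same 2 horses.

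Likeness to other equine probes was measured as the mean absolute difference of the log2 ratio over the 7 horses, among 347 probes with values from every horse. The probe nearest to SCD was RYR1, the calcium release channel of the sarcoplasmic reticulum, at 0.67, followed by mitochondrial tRNA-Ser (TRNS2) at 0.86, where the median distance from SCD to all other probes was 1.29. RYR1 lay at -1.20, -1.38, -1.03 and -0.38 in horses 5, 12, 32 and 38 and at 0.69, 0.38 and 0.44 in horses 42, 44 and 54, so that it shared the high values of horses 42 and 44 with SCD and differed in sign in horse 54. For LEPR the nearest were TREM1, a receptor of myeloid cells, at 0.15 and the cytokine TNF at 0.22 (median distance 0.68). TREM1 and TNF were both low in horses 5, 12 and 44 and high in horses 38, 42 and 54, as LEPR was. CD36 was nearest to NSEP1 (0.30) and TIA1 (0.31), both binding nucleic acids, with a median distance of 0.59. The nearest probes of Gpam were the kinase AKT1 (0.12) and Pmpcb, a mitochondrial peptidase subunit (0.13), and those of C1QTNF2 were the calcium-sensing receptor CASR (0.11) and the mitochondrial ribosomal protein Mrps24 (0.16), against median distances of 0.38 and 0.45. Probes with small ratios in every horse are near to each other by this measure. The nearest probes were picked from the 347 by these same horse values. A shared pattern and a distance below the median therefore follow from the choice, and no relation was tested.

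Fasn builds palmitate, the substrate chain of SCD. Its mouse probe was the steadiest member, with horse means from -0.21 (horse 5) to 0.17 (horse 38) around a median of 0.12. The mean of Fasn was 0.044 ± 0.16 (SD, n = 7; 95% interval -0.10 to 0.19; limma, adjusted p = 0.772; exact sign-flip p = 0.453). The small mean came from opposite values in the dye orientations. Fasn was above the pool on 6 of 7 microarrays with PSSM muscle in Cy3 (mean 0.35 ± 0.24) and below it on 6 of 7 with PSSM muscle in Cy5 (mean -0.26 ± 0.29), a difference of -0.60 (limma, adjusted p = 0.0127). The seventh Cy5 microarray, of horse 38, read 0.00 with both signals at the lowest level.

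Lpl anchors at the capillary wall, where it hydrolyzes the triglyceride of circulating lipoproteins for muscle and fat. The log2 ratios of Lpl were 0.68 in horse 5, 0.56 in horse 12, 0.01 in horse 32, 0.01 in horse 38, 0.69 in horse 42, 0.25 in horse 44 and -0.08 in horse 54. Lpl was above the pool in 6 of 7 horses, though only barely in horses 32 and 38. The mean of Lpl was 0.30 ± 0.34, a ratio of 1.23 (SD, n = 7; 95% interval of the log2 ratio -0.0083 to 0.62). The p was 0.0325 before and 0.214 after adjustment by limma, and the exact sign-flip p was 0.0781. The interval rests on the SD of Lpl alone and includes 0, whereas limma also draws on the spread of other probes. The exact p of Lpl was 0.0156 with each microarray centred on its equine probes, and 0.0312 with centring on all probes or without horse 54. It was 0.094 without horse 32 or 38, and 0.156 without horse 5, 12, 42 or 44. Centring on equine probes raised the median of all mouse probes by 0.12, and limma gave Lpl an adjusted p of 0.055 there. Lpl read higher with PSSM muscle in Cy5 in 7 of 7 horses, by 0.81 (limma, adjusted p = 0.0043). On the Cy5 microarrays 7 of 7 values were above the pool (mean 0.71 ± 0.38), and on the Cy3 microarrays 3 of 7 were (mean -0.10 ± 0.44).

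Dye orientation thus moved 5 of the 8 members in which it could be tested (limma on the difference between both microarrays of a horse). SCD, Fasn and Lepr 3289 read lower with PSSM muscle in Cy5, and CD36 and Lpl read higher. Among equine probes 2 of 5 members passed, where 55.0% of 342 probes did, and among mouse probes 3 of 3 members passed, where 38.5% of 9238 probes did. Means over both orientations balance the dyes, and values from a single orientation do not.

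**Figure D3:**
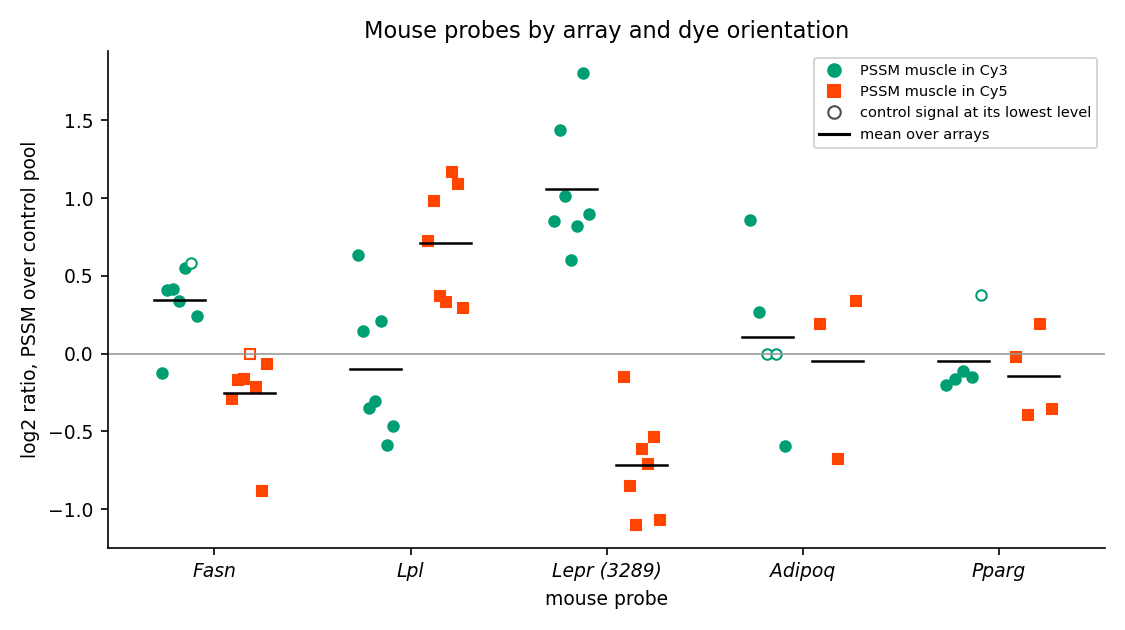
Log2 ratio of PSSM muscle over the control pool (y axis) on each microarray for the 5 tested mouse probes (x axis). Circles are microarrays with PSSM muscle in Cy3, squares those with PSSM muscle in Cy5, open marks values in which the control channel was at its lowest signal, and bars are means over microarrays. Lepr 3289 lies between 0.60 and 1.80 in one orientation and between -1.10 and -0.15 in the other.

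Of the members best known from adipocytes, Adipoq and Pparg had values on about as many microarrays as the median mouse probe, and Fabp4 on 1. Adipoq, the most abundant secreted protein of adipocytes, had a value on 8 microarrays of 6 horses, with horse values of 0.53 (horse 5), 0.27 (horse 12), -0.68 (horse 32), 0.00 (horse 38), 0.17 (horse 42) and -0.60 (horse 44). Horses 5 and 12 lay above the pool and horses 32 and 44 below it, and on the Cy3 microarrays of horses 38 and 42 both signals were at the lowest level. The mean of Adipoq was -0.05 ± 0.48 (SD, n = 6; 95% interval -0.56 to 0.46; limma, adjusted p = 0.889; exact sign-flip p = 0.875). Pparg, the nuclear receptor that drives adipocyte differentiation, had a value on 9 microarrays of 6 horses, from -0.36 (horse 44) to 0.38 (horse 54). The value of Pparg in horse 54 rested on 1 microarray, where the control channel was at its lowest signal, and the mean was -0.08 ± 0.26 (SD, n = 6; 95% interval -0.35 to 0.20; limma, adjusted p = 0.718; exact sign-flip p = 0.500). Horse means of Adipoq and Pparg can rest on 1 dye orientation, since both microarrays had a value in 2 and 3 horses. Fabp4, one of the most abundant transcripts of adipocytes, had 1 value, 0.14 in horse 12 (control at its lowest signal), and was not tested.

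A wider list of adipocyte markers, which holds the members Adipoq, Pparg and Fabp4 too, had 17 mouse probes. Of these 14 were tested, Adipoq and Pparg among them, and 0 passed limma at the adjusted threshold. In limma 2 had an unadjusted p under 0.05 (Thrsp lower, Cidea higher), as had 19.1% of all tested mouse probes. The median log2 ratio of the 14 was 0.00085, and the median over the list stayed between -0.08 and 0.08 in every horse. Lep, leptin itself, had a mean of -0.0020 ± 0.21 (SD, n = 7; limma, adjusted p = 0.992). Retn (resistin), like Fabp4, had a value on 1 microarray only. All of these are mouse probes hybridized with horse RNA, and whether each reads the horse gene of its name was not tested. The list therefore gives no measure of adipocyte content in the horses or the pool.

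The other genes of the lipid pathways were followed on mouse probes by lists. For comparison, 0.452% of all tested mouse probes rose and 1.36% fell in limma, and 19.1% had an unadjusted p under 0.05. Of all tested equine probes 24.4% passed limma, and 38.0% had an unadjusted p under 0.05. In triglyceride synthesis 3 of 9 tested probes had an unadjusted p under 0.05 in limma. After adjustment 1 of the 9 fell and 0 rose. It was Agpat3, an acyltransferase of the step after Gpam, which lay between -0.86 (horse 44) and -0.27 (horse 12) in 7 of 7 horses, with a mean of -0.52 ± 0.18 (SD, n = 7; limma, adjusted p = 0.018). Without horse 38 or horse 42 the adjusted p of Agpat3 was 0.061 and 0.052, and on the Cy5 microarrays alone its mean was -0.27 (adjusted p = 0.128). The list had a median log2 ratio of -0.13. In fatty acid synthesis and desaturation, the pathway of Fasn and SCD, 6 of 14 tested probes had an unadjusted p under 0.05 in limma, in both directions. After adjustment 1 of the 14 fell and 0 rose. Elovl2, which elongates polyunsaturated fatty acids and is known from liver, was below the pool in 7 of 7 horses (-1.49 to -0.36) with a mean of -0.79 ± 0.39 (SD, n = 7; limma, adjusted p = 0.027). Its adjusted p was 0.066, 0.061 and 0.068 without horse 12, 38 or 42, and 0.102 with the test of the study's methods. Elovl2 had a value on 11 microarrays, so that some horse means rest on 1 dye orientation. Its mean was -0.43 with PSSM muscle in Cy3 only and -1.24 in Cy5 only.

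In fatty acid uptake and transport, the pathway of CD36, Lpl and Fabp4, 1 of 17 tested probes fell and 0 rose. In limma 3 of the 17 had an unadjusted p under 0.05, against 19.1% of all tested mouse probes. Fabp1, the fatty acid binding protein of liver and intestine, was at -4.42, -3.48, -2.27, -5.09, -4.31, -4.44 and -4.74 in horses 5, 12, 32, 38, 42, 44 and 54. All 7 horses were thus far below the pool, with a mean of -4.11 ± 0.95, a 17.2-fold lower level (SD, n = 7; limma, adjusted p = 0.00038). Markers of hepatocytes moved with it, since 10 of 12 tested mouse probes of that list fell and 0 rose (means from -4.19 to 0.08) and 2 of 5 equine ones fell (SLC2A2 at -1.50 and PLG at -0.54). Alb, the serum albumin of liver, was below the pool in 7 of 7 horses, at -4.19 ± 1.08 (SD, n = 7; limma, adjusted p = 0.00061), and the median of the mouse list was -1.70 to -1.18 in single horses. The part of such transcripts in the values of Fabp1 and of Elovl2 was not tested. SCD was below the pool in 5 horses and above it in horses 42 and 44, and its relation to these transcripts was not tested either.

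In lipolysis and lipid droplets 0 of 7 tested mouse probes and 0 of 1 equine probe passed limma (2 mouse and 0 equine at an unadjusted p under 0.05). Bscl2 (seipin, which shapes nascent lipid droplets) was the only one with the same sign in 7 of 7 horses, at 0.30 ± 0.21 (SD, n = 7; limma, adjusted p = 0.111), and equine CAV1 (caveolin 1, of adipocyte and endothelial caveolae) was at -0.26 ± 0.51 (limma, adjusted p = 0.299). Among adipokines and their receptors 0 of 17 tested probes passed limma, with 4 at an unadjusted p under 0.05. Over all tested mouse probes that share was 19.1%. Rbp4, a retinol carrier from liver and fat, was at -0.39 ± 0.22 (adjusted p = 0.063) and C1qtnf7, a relative of C1QTNF2, at 0.27 ± 0.18 (adjusted p = 0.118), each with one sign in 7 of 7 horses (SD, n = 7, limma). C1qtnf7 had a value on 10 microarrays, 3 of them with the control channel at its lowest signal.

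Among adipogenic transcription factors, the partners and relatives of Pparg, 2 of 26 tested mouse probes fell and 0 rose. Of all tested mouse probes 1.36% fell. In limma 5 of the 26 had an unadjusted p under 0.05, against 19.1% of all tested mouse probes. Of the equine probes 0 of 2 passed, and 1 (CEBPB) had an unadjusted p under 0.05 in limma, as had 38.0% of all equine probes. Klf15, a Krüppel-like factor of adipocytes and muscle that is induced by glucocorticoids, was at -0.45 ± 0.19 (adjusted p = 0.036), and Nr1h2 (LXR beta, a sterol receptor) at -0.40 ± 0.18 (adjusted p = 0.046), each below the pool in 7 of 7 horses (SD, n = 7; limma). These calls were marginal, and Klf15 had a value on 11 microarrays, so that some of its horse means rest on 1 dye orientation. Nr1h2 lost its call whichever horse was left out (adjusted p from 0.056 to 0.128), and Klf15 without horse 5, 12, 38, 42 or 44 (adjusted p up to 0.110). With each microarray centred on its equine probes the adjusted p was 0.076 for Nr1h2 and 0.080 for Klf15. C/EBP beta, an early factor of adipogenesis, was measured by an equine and a mouse probe. CEBPB was at -0.28 ± 0.25 (adjusted p = 0.077) and Cebpb at -0.36 ± 0.16 (adjusted p = 0.053; SD, n = 7; limma), below the pool in 6 of 7 and 7 of 7 horses. The study lists CEBPB among its significantly modulated genes at a ratio of 0.82, which is also its ratio here, where it did not pass.

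**Figure D4:**
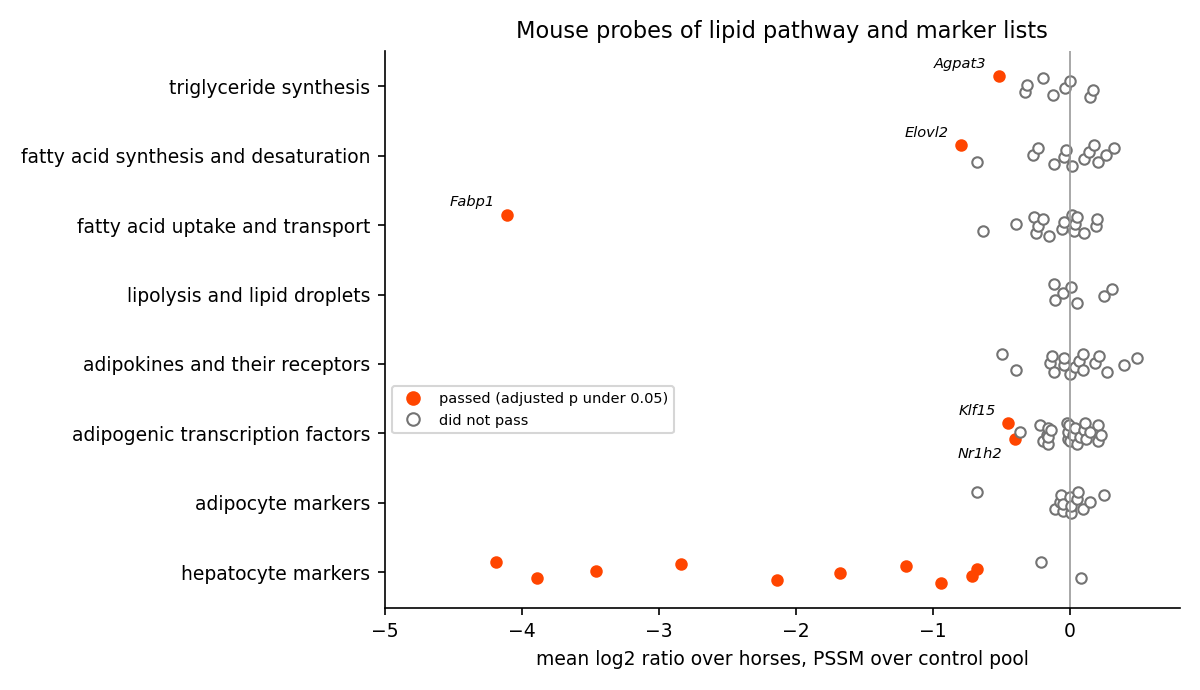
Mean log2 ratio of PSSM muscle over the control pool across horses (x axis) for each tested mouse probe of the lipid pathway lists and of the adipocyte and hepatocyte marker lists (y axis). Filled points passed limma at an adjusted p under 0.05 and are named except in the hepatocyte list, and open points did not pass. All 14 adipocyte markers are open, while 10 of 12 hepatocyte markers are filled and lie below 0.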

How the data were processed

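Each microarray was scanned and quantified with GenePix Pro, Lowess normalized in GeneSpring, and deposited by the authors as natural log (ln) ratios of Cy5 to Cy3 that end at ratios of 0.01 and 100. The log base was recognized from these ends. Background correction is not given in the sources used here. Ratios were turned to PSSM over control by the labels' dyes, converted to log2 and averaged per horse. A control signal at its lowest level was recognized by a ratio times 10 that is whole within 0.0002. Tests needed values from at least 5 horses (limma 3.58.1, R 4.3.3). Each 95% interval is a t interval from the SD of that probe over horses, not from the variance that limma uses. Equine probes were named by the study's probe list and mouse probes by the platform annotation (13430 of 24109), and probes of a gene were kept apart. The members and gene lists were chosen with earlier results of these data known. Every member probe is described. Of each pathway list, up to 4 that passed are named, or else up to 2 with the largest ratio among those of one sign in every horse. Genes named beside these were picked once their values were known. Alternatives were the methods' t-test, robust limma, a horse block with a dye term, single dye orientations, centring, stricter and looser filters, linear averaging, adjustment over all probes and leaving out each horse. Leaving out 1 microarray of horse 54 and the F test between horses were added after the values were seen. Exact tests and tables were made in Python 3.11.15 (scipy 1.17.1, pandas 2.3.3).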

Additional observations from a re-analysis of the deposited data

How the results depend on the processing

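The count of equine member probes that passed was 0 under all 20 alternatives. For the mouse member probes it was 0 except with PSSM muscle in Cy3 only (2 passed, Fasn at 0.35 and Lepr 3289 at 1.06) and in Cy5 only (2 passed, Lpl at 0.71 and Lepr 3289 at -0.72, the opposite sign to its mean over both dyes). Leaving out each horse kept both counts at 0. The exact sign-flip test reached a p under 0.05 for 0 member probes in the report, for 2 in the Cy3 orientation, for 4 in the Cy5 orientation, for 2 after centring on equine probes (Lpl and Lepr 3289, exact p = 0.0156 each), for 1 after centring on all probes (Lpl, exact p = 0.0312) and for 0 to 1 when a horse was left out (Lpl without horse 54, exact p = 0.0312). Centring on equine probes raised the median of all equine probes by 0.12 and that of mouse probes by 0.12. The counts of members with a dye difference (5) and with a horse difference (3) were the same under each centring and without each horse. Other means changed sign and did not pass the test under that setting. With PSSM muscle in Cy3 only, SCD was at 0.082, CD36 at -0.18, Lpl at -0.10 and Adipoq at 0.11, and in Cy5 only, LEPR was at -0.046 and Fasn at -0.26. After centring on equine probes, Gpam was at 0.0050, Adipoq at 0.039 and Pparg at 0.015, and without values at the lowest control signal Fasn was at -0.037. When a horse was left out, LEPR ran from -0.12 to 0.13, CD36 from -0.041 to 0.24 and Adipoq from -0.17 to 0.073. The cause of these changes was not tested. The equine C1QTNF2 mean stayed above 0, but ran from 0.0074 (without horse 44) to 0.17 when a horse was left out. No paired analysis was possible because there is 1 group of horses against a pool. The 7 horses, 1 pool and missing values on the mouse probes limit the precision. No member had a horse set apart from the others by Dixon's criterion.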
